A study of Mus musculus with 6 samples.

Results

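Chaperone genes were followed through a CPEB1 RIP-seq experiment on freshly isolated mouse muscle stem cells (fiSCs). The members were taken by gene symbol: the subunits of the cytosolic chaperonin (Tcp1 and Cct2 to Cct8), the genes whose names begin with Hspa, Hspb, Hspd, Hspe or Hsph, and the Dnaja, Dnajb and Dnajc genes, with names marked -ps left out. The rule gave 81 of the 55376 genes in the tables, namely 9 chaperonin, 27 Hsp and 45 Dnaj genes. It took Hspbp1 and Hspbap1 by name, although these encode proteins that bind Hsp proteins, and it did not take the Hsp90 genes.

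In RIP-seq a protein is pulled from the lysate with its antibody on beads, and the RNA bound to the beads is sequenced. CPEB1 binds cytoplasmic polyadenylation elements (CPEs) in 3′ UTRs. The data hold 6 libraries from fiSCs of C57BL/6 mice aged 3 months, with 2 from precipitation with an antibody to CPEB1 (CPEB1 IP), 2 from precipitation with a control IgG, and 2 from input RNA that met no antibody. By the study's methods, the cells were sorted from hindlimb muscle by surface markers and the RNA was amplified by SMART-Seq2, and the labels call the replicates biological. With 2 libraries in a group, the precision of the tests rests on the spread shared across genes.

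Chaperones hold unfolded proteins and help them fold. Hsp70 proteins (Hspa genes) bind and release stretches of unfolded chain with ATP, the J proteins (Dnaj genes) bring clients to them and start their ATP hydrolysis, and Hsp110 proteins (Hsph1, Hspa4, Hspa4l) exchange their nucleotide. The chaperonin is a ring of different subunits that folds actin and tubulin among others, Hspd1 and Hspe1 form the chamber of mitochondria, and small Hsp proteins (Hspb genes) hold clients without ATP. Some of these genes are switched on by heat shock factor 1 (Hsf1) under heat and other stress, while others are expressed in most cells at all times.

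Counts on genes lay between 1284716 (IgG 1) and 4941653 (CPEB1 IP 2), and these made up 39.1 to 39.5% of the library total behind the deposited FPKM in IgG, 69.5 to 69.9% in CPEB1 IP and 71.1 to 79.8% in input. Cpeb1 itself was at 97.6 and 82.2 CPM in input, 90.4 and 95.4 in IgG, and 197 and 216 in CPEB1 IP. Summed satellite cell markers stood at 11093 to 13328 CPM in CPEB1 IP, 11579 to 12885 in input and 10013 to 10107 in IgG, and each list of markers of another cell type summed to at most 2396 CPM in any library. Of the 9 satellite cell markers, 4 were lower in CPEB1 IP than in input (Pax7 by 1.84 on the log2 scale) and 6 were lower in IgG than in input. One, Myod1, was higher in both (by 1.31 and 0.93). In each precipitate 4 of 5 endothelial markers were higher than in input, and 3 of 4 mural markers were lower. Fibro-adipogenic markers were split, 2 higher and 2 lower in CPEB1 IP, and 3 and 2 in IgG. Haematopoietic markers were higher in 2 of 3 and 3 of 4 cases, and myofibre markers in 2 of 6 in each. Schwann markers were higher in 3 of 4 and 2 of 4, with 1 lower in IgG. Among all genes tested, 17% were higher and 15.8% lower in CPEB1 IP, and 21.4 and 19.4% in IgG. The part of these differences in the chaperone results was not tested. A precipitate against input compares RNA held on the beads with input RNA, and measures neither cell numbers nor RNA in each cell. For levels in input, fewer cells of a type and less RNA in each cell cannot be told apart in such bulk RNA.

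Short stretches of sequence show where elements relevant to CPEB1 and to heat shock lie in some of the genes named below. The following CPEs lie in annotated 3′ UTRs (mm10, GENCODE M21, the motif in capitals with up to 10 bases on each side, written 5′ to 3′ on the gene's strand); Tcp1 is the subunit with the largest difference between CPEB1 IP and input, and Hspa1a, Hspa1b and Dnajb1 are the heat-inducible genes that stood lowest in CPEB1 IP against input.
Tcp1, chr17:12918356-12918379, plus strand: tacaagcttgTTTTAAATactgga
Hspa1a, chr17:34969272-34969297, minus strand: ttgactaacaTTTTATctgaagacac
Hspa1b, chr17:34956454-34956479, minus strand: tgaaaaaaacTTTTATgacttaaata
Dnajb1, chr8:83611191-83611216, plus strand: gaggttcttgTTTTATctgtatttgt

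Counted from its first base, the Tcp1 motif begins 14 bases before an annotated 3′ end, that of Hspa1a 98 bases, that of Hspa1b 34 bases and that of Dnajb1 1453 bases before theirs. This Tcp1 end belongs to a transcript that stops inside the gene, which runs to position 12925067. Tcp1 also held a TTTTAT at chr17:12924865-12924890, 193 bases before an annotated 3′ end. Dnajb1 held another TTTTAT 981 bases before its end. A search of both strands of promoter windows (RefSeq, GRCm38.p6, from 250 bases before to 50 after a start) for the heat shock elements GAANNTTCNNGAA and TTCNNGAANNTTC, which can overlap, found one in 4 of the 67 members with a window: Hspd1, Hspe1, Hsph1 and Dnajb6. Of all 32851 promoter windows, 0.603% held one, and of all 27025 genes with a window 0.662%. All 10 heat-inducible genes had a window and 3 held an element. None was found for Hspa1a, Hspa1b, Dnajb1, Dnaja1 or Dnajb4. Only exact matches were taken, so elements with a mismatch or a gap, or outside the window, would be missed. Hspd1 and Hspe1 lie head to head on chromosome 1 and share the same pair of overlapping elements. The elements of Hspd1 and of Hsph1 are shown with the fixed letters in capitals.
Hspd1, chr1:55088053-55088077, minus strand: cttccgGAAggTTCtaGAAcggacc
Hsph1, chr5:149636282-149636306, minus strand: tgcagaTTCtgGAAagTTCtcctca

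In input, the members ran from no count to 1415 FPKM. By deposited FPKM, which takes gene length into account, the highest was Hspa5 (the Hsp70 of the endoplasmic reticulum, ER) at 1208 and 1415. It was followed by Hspb1, a small Hsp, at 742 and 799, Hspa8, the constitutive cytosolic Hsp70, at 657 and 846, Dnajb1, a heat-inducible J protein, at 522 and 528, and Hspa1a, a heat-inducible Hsp70, at 398 and 424. The neighbours Hspb1 and Hspa8 overlapped between libraries and could not be put in order. In all, 11 members had a mean input FPKM over 100 and 25 over 30, while 18 were under 1. Among the chaperonin subunits, mean input FPKM ran from 33.6 ± 3.63 (SD, n = 2) for Tcp1 to 130 ± 10.2 for Cct5, and Cct6b, a testis form, was at 0.0581.

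Low counts kept 15 members out of every test: Cct6b, Dnajb3, Dnajb7, Dnajb8, Dnajc5b, Dnajc5g, Dnajc6, Dnajc12, Dnajc22, Dnajc28, Hspa1l, Hspa12b, Hspb3, Hspb7 and Hspb9. None of them exceeded 21 counts in a library, and 5 members had no count in either input library. The filter was passed by 66 members in each comparison with input and by 62 in CPEB1 IP against IgG.

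The sum over the 81 genes took 2.64 and 2.83% of the counts on genes in input, 2.18 and 2.1% in CPEB1 IP, and 1.47 and 1.51% in IgG. The groups did not overlap, with the share highest in input and lowest in IgG. What follows asks first how each precipitate differed from input and then how CPEB1 IP differed from the IgG control. All 3 comparisons share libraries, so their results are set side by side as separate values.

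**Figure D1:**
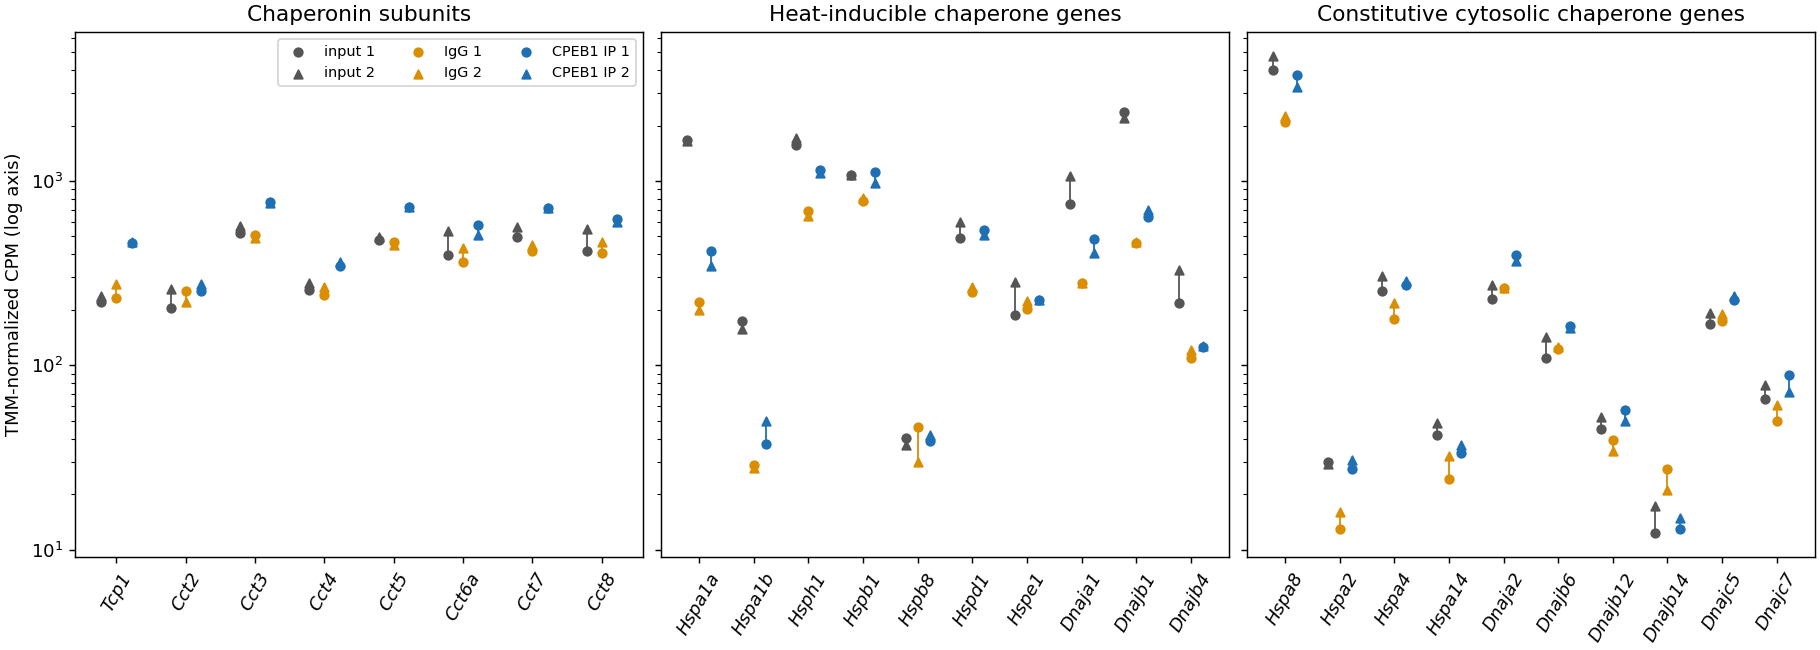
TMM-normalized CPM (log axis) of 8 chaperonin subunits, 10 heat-inducible and 10 constitutive cytosolic chaperone genes in each library, with circles for replicate 1, triangles for replicate 2 and lines joining the replicates of a group (grey, input; orange, IgG; blue, CPEB1 IP). Tcp1 was at 460 and 470 in CPEB1 IP against 221 and 238 in input, while Hspa1a was at 415 and 344 against 1669 and 1643.

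Some heat-inducible chaperone genes, led by Hspa1a, Hspa1b and Dnajb1, stood far below input in the CPEB1 IP. Hspa1a (chr17:34969190-34972156, minus strand) was at 1669 and 1643 CPM in input, 415 and 344 in CPEB1 IP, and 222 and 200.3 in IgG. The input libraries were the highest, the IgG libraries the lowest, and no groups overlapped. Its log2 fold change in CPEB1 IP against input was -2.08 ± 0.14 (SE, adjusted p = 7.5e-07 in the quasi-likelihood test of edgeR), a level 4.23-fold lower. Its neighbour Hspa1b (chr17:34956436-34959238) was at 173 and 157 CPM in input, 37.5 and 49.8 in CPEB1 IP and 28.9 and 27.7 in IgG, with a log2 fold change of -1.84 ± 0.17 against input (edgeR adjusted p = 1.1e-05). The coding sequences of the pair are 99.4% identical and 54.2% of the 75-base windows of Hspa1a occur in another gene, so the division of reads between them is uncertain. The treatment of reads with several matches is not given in the sources used here. Together the pair had 0.461 and 0.378 counts for each count of Hspa8 in input, 0.120 and 0.121 in CPEB1 IP, and 0.119 and 0.102 in IgG. This ratio, which no library scaling alters, was thus lower in all 4 precipitate libraries than in both input libraries, with IgG just below CPEB1 IP. Hspa8 also shares sequence, with 32.8% of its windows found in other genes, most of them in the pseudogene Gm15459.

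Dnajb1, the J protein that works with Hspa1a, was at 2363 and 2209 CPM in input, 641 and 695 in CPEB1 IP and 462 and 468 in IgG. The groups again did not overlap, and the log2 fold change in CPEB1 IP against input was -1.72 ± 0.13 (edgeR adjusted p = 2.2e-06). Dnajb1 had 10.4 and 8.15 counts for each count of Dnaja2, a J protein of constitutive expression, in input, against 1.61 and 1.89 in CPEB1 IP and 1.75 and 1.79 in IgG. None of its 75-base windows occurs in another gene.

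Over the list of heat-inducible genes, 6 of 10 were lower in CPEB1 IP than in input and 0 were higher, beside 15.8% of all 12171 genes tested that were lower and 17% that were higher. Beside Hspa1a, Hspa1b and Dnajb1, these were Dnajb4 (-1.05 ± 0.17), Dnaja1 (-0.98 ± 0.16), both cytosolic J proteins, and Hsph1 (-0.48 ± 0.12), the inducible Hsp110. The median log2 fold change of the list was -0.73, against -0.00377 over all genes tested. The count of 0 higher was also 0 at an unadjusted p under 0.05 and with DESeq2, which called the same number lower, 6. The other 4 did not pass, with values of 0.12 for Hspb8, 0.01 for Hspb1, -0.01 for Hspe1 and -0.0041 for Hspd1. Leaving out either CPEB1 IP library, the call of Hsph1 was lost and 5 were lower. The value of Hspe1 rested on which input library was used: it was higher in CPEB1 IP without input 2 (0.30, edgeR adjusted p = 0.038) and lower without input 1 (-0.30, edgeR adjusted p = 0.039).

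Constitutive cytosolic chaperone genes did not show that range. Of 10, 2 were higher in CPEB1 IP than in input, Dnaja2 (0.67 ± 0.13) and Dnajc5 (0.42 ± 0.13), a J protein of synaptic and other vesicles. The number lower was 0, also at an unadjusted p under 0.05 and with DESeq2. Among all 12171 genes tested, 17% were higher, near the share in this list, and 15.8% were lower. The log2 fold changes of the 10 genes lay between -0.30 and 0.67, with a median of 0.12. Hspa8 itself was at 3992 and 4759 CPM in input, 3771 and 3245 in CPEB1 IP and 2098 and 2243 in IgG. Its log2 fold change against input was -0.27 ± 0.14 and did not pass the test (edgeR adjusted p = 0.15), but it was lower under 5 alternatives, with edgeR adjusted p from 0.001 (without input 1) to 0.045 (all 6 libraries in one fit). Under each of those 5 the constitutive list had 1 gene lower. Dnajc5 lost its call with either CPEB1 IP library left out, and Dnaja2 with CPEB1 IP 1 left out (edgeR adjusted p = 0.051).

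The chaperonin subunits went the other way. Tcp1, the alpha subunit (chr17:12915701-12925067, plus strand), was at 221 and 238 CPM in input, 232 and 277 in IgG, and 460 and 470 in CPEB1 IP. Both CPEB1 IP libraries were above all others, and the log2 fold change against input was 1.07 ± 0.12 (edgeR adjusted p = 5.5e-05), a level 2.1-fold higher. Its adjusted p was at most 0.00048 with any of the 4 libraries left out. Of its exon bases, 16.9% lie over exons of other genes (Gm26130, Acat3 and Mrpl18), and the strand setting of the counting is not given in the sources used here. Relative to the counts of the other 7 subunits, Tcp1 made 7.96 and 7.32% in input, 8.72 and 10% in IgG and 11.5 and 11.9% in CPEB1 IP. In this ratio, too, the CPEB1 IP libraries were the highest, and no groups overlapped.

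Of the 8 subunits tested, 6 were higher in CPEB1 IP than in input, with a median of 0.47. Among all genes tested, 17% were higher and 15.8% lower. At an input FPKM of 30 to 100 and of 100 and over, where the 8 subunits lay, 27.2 and 26.7% were higher. The 6 subunits were Tcp1, Cct5 (0.63 ± 0.12), Cct3 (0.53 ± 0.12), Cct7 (0.48 ± 0.12), Cct4 (0.46 ± 0.13) and Cct8 (0.40 ± 0.14). Cct6a (0.27 ± 0.15) and Cct2 (0.25 ± 0.14) did not pass, and 0 subunits were lower, also at an unadjusted p under 0.05 and with DESeq2. These calls rested on both CPEB1 IP libraries: 2 subunits were higher without CPEB1 IP 1 and 1 without CPEB1 IP 2. They also depended on the scaling, since 2 were higher when the library totals behind the deposited FPKM replaced TMM. That scaling moved the median log2 fold change of all genes to -0.20.

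**Figure D2:**
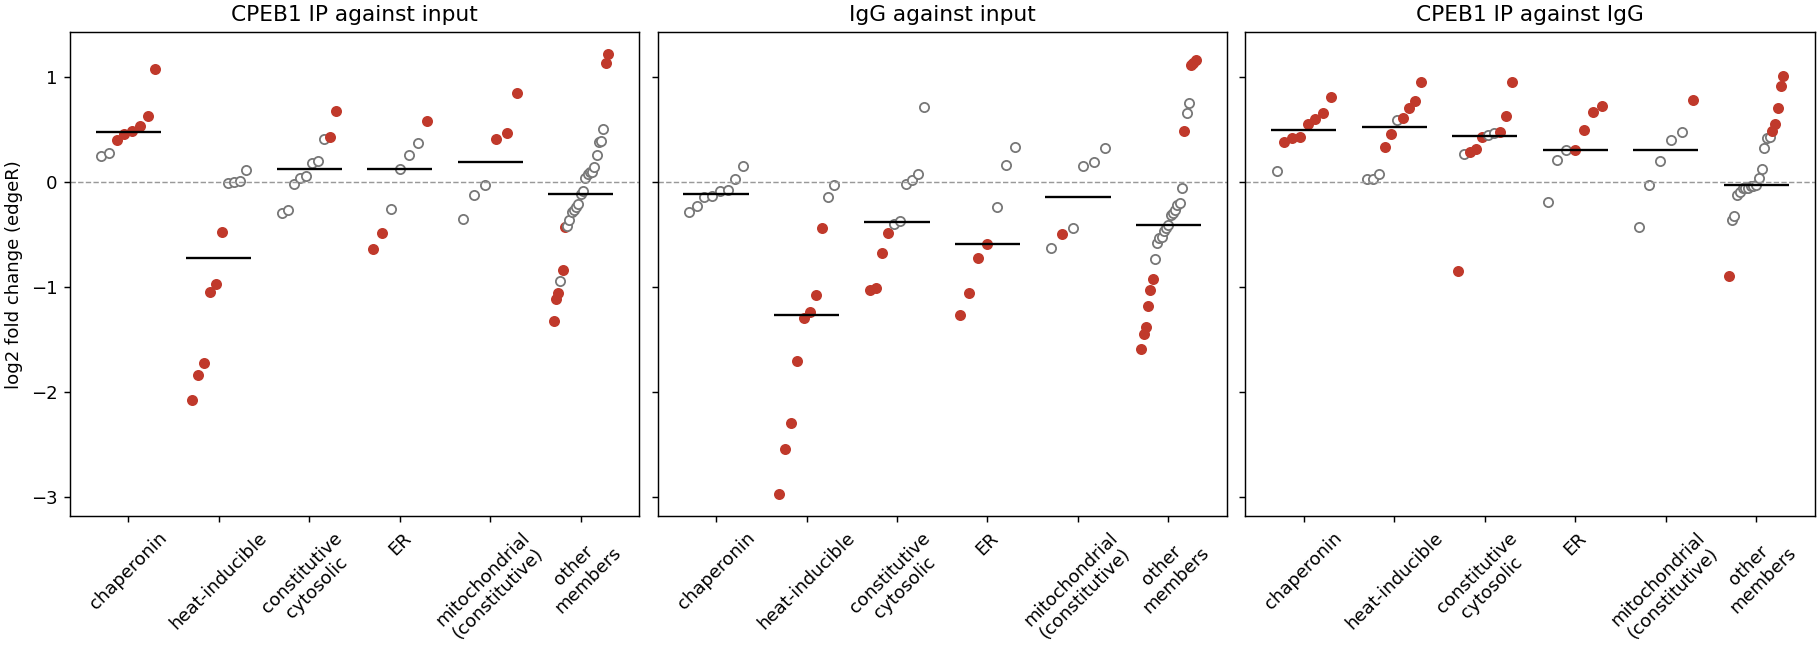
Log2 fold changes from edgeR in 3 comparisons for the tested members, by class, where each point is a gene, filled points have an adjusted p under 0.05 and bars are class medians (ER, endoplasmic reticulum; the mitochondrial class leaves out the heat-inducible Hspd1 and Hspe1). The heat-inducible class had a median of -0.73 in CPEB1 IP against input and -1.27 in IgG against input, and the chaperonin class 0.47 and -0.12.

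Hsp and Dnaj genes of the organelles and the nucleus were mixed. In the ER, Hspa5 was at 7211 and 7822 CPM in input, 5516 and 4834 in CPEB1 IP and 3059 and 3191 in IgG. Its groups did not overlap, and it was lower in CPEB1 IP than in input by 0.49 on the log2 scale (± 0.13, edgeR adjusted p = 0.013), a call that was lost with either CPEB1 IP library left out. Its J proteins did not follow a common direction. Dnajc10, a disulfide reductase, was lower (-0.64 ± 0.16), Dnajb9 was higher (0.58 ± 0.15), both calls being lost with either CPEB1 IP library left out, and Dnajc3 (0.12), Dnajb11 (0.37) and Dnajc1 (0.26) did not pass. Of the mitochondrial J proteins, Dnajc30 (0.84 ± 0.27) and Dnajc11 (0.46 ± 0.15) were higher, as was Hspa9, the mitochondrial Hsp70 (0.40 ± 0.13), and all 3 calls were lost with either CPEB1 IP library left out. Exons of Bud23 cover 26.2% of the exon bases of Dnajc30 on the opposite strand.

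Dnajc21 and Dnajc2, J proteins that act in ribosome assembly and at the ribosome, were among the members that were higher. Dnajc21 was at 19.3 and 22.04 CPM in input, 47.5 and 45.4 in CPEB1 IP and 44.1 and 46.6 in IgG, and Dnajc2 at 18.7 and 17.3, 37.1 and 38.8, and 34.2 and 43.7. For both genes the CPEB1 IP and IgG libraries overlapped and lay above input. The log2 fold changes in CPEB1 IP against input were 1.21 ± 0.20 and 1.13 ± 0.22 (edgeR adjusted p = 0.00065 and 0.0017). Dnajc9, a histone chaperone, was lower at -1.33 ± 0.27 (edgeR adjusted p = 0.0026), with 23.6 and 29.0 CPM in input, 11.2 and 9.29 in CPEB1 IP and 10.6 and 9.47 in IgG. Dnajc8, a splicing factor (0.39), and Dnajc17 (-0.24) did not pass.

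The small Hsp genes other than Hspb1 were low. By edgeR, 0 of the 4 tested were called in CPEB1 IP against input, also at an unadjusted p under 0.05, and Hspb1 was at 1080.3 and 1077 CPM in input, 1123 and 972 in CPEB1 IP and 779 and 811 in IgG. With 46.4% of its windows shared with Hsp25-ps1, which had at most 24 counts in a library, some of its reads could have been placed on either gene. The members outside the lists with the largest differences that passed were Hspa12a (-1.12), Dnaja4 (-1.06), Dnajb5 (-0.84) and Dnajb2 (-0.43), each lower in CPEB1 IP than in input. Over all 66 members tested, 14 were higher and 13 lower, 21.2 and 19.7% of them, near the shares of all genes. By mean input FPKM (under 5, 5 to 30, 30 to 100, 100 and over), 2 of 18, 3 of 23, 7 of 14 and 2 of 11 members were higher, beside 11.8, 21, 27.2 and 26.7% of all genes, and 2, 5, 2 and 4 of these members were lower, beside 10.9, 20.5, 19.4 and 28.5%. Without either CPEB1 IP library, 4 members were higher and 8 lower, and DESeq2 called 9 higher and 11 lower.

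The IgG precipitate showed the same genes without the antibody to CPEB1. Against input, 23 of 66 members were lower and 4 higher, beside 19.4% of all 12980 genes tested that were lower and 21.4% that were higher. The members' median log2 fold change was -0.39, against 0.03 over all genes. In the same ranges of input FPKM, 2 of 18, 8 of 23, 5 of 14 and 8 of 11 members were lower, beside 6.38, 31.5, 43.4 and 51.8% of all genes, so the share of lower genes grew with abundance in both. Of the 10 heat-inducible genes, 8 were lower, led by Hspa1a (-2.97 ± 0.14), Hspa1b (-2.55 ± 0.21), Dnajb1 (-2.30 ± 0.13) and Dnaja1 (-1.70 ± 0.15). Hsph1 (-1.30), Dnajb4 (-1.24), Hspd1 (-1.08) and Hspb1 (-0.44) were lower too, and Hspe1 (-0.15) and Hspb8 (-0.03) did not pass. No heat-inducible gene was higher, also at an unadjusted p under 0.05 and with DESeq2. Of the 10 constitutive cytosolic genes, 4 were lower, all Hsp70 or Hsp110 genes: Hspa2 (-1.03), Hspa8 (-1.01), Hspa14 (-0.68) and Hspa4 (-0.49). DESeq2 called 2 constitutive genes lower, and Hspa2 and Hspa14 lost their calls. Leaving out 1 library, the log2 fold change of Hspa14 ran from -0.91 to -0.51. The calls of Hspb1 and Hspa4 were lost with either IgG library left out, and 1 constitutive gene was lower without IgG 1 and 2 without IgG 2.

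No chaperonin subunit was called in IgG against input. By edgeR, 0 of 8 were higher and 0 lower, with log2 fold changes from -0.29 (Cct7) to 0.15 (Tcp1), 1 was lower at an unadjusted p under 0.05, and DESeq2 called 1 lower. Without input 1, 3 were lower. The 4 members that were higher in IgG than in input were Hspbap1 (1.16), Dnajc21 (1.13), Dnajc2 (1.11) and Dnajc25 (0.48, or -0.41 with the library totals behind the deposited FPKM as scaling), and without either IgG library this count was 2. Outside the lists, Dnaja4 (-1.59), Dnajb2 (-1.45), Hspa12a (-1.18) and Hspbp1 (-1.03) led the members that were lower, followed by Dnajb5 (-0.92). Lower members of the remaining lists were Dnajc9 (-1.38), Hspa5 (-1.27), Dnajc10 (-1.06), Dnajc3 (-0.72), Hspa13 (-0.59) and Hspa9 (-0.49). Dnajb5 and Dnajc9 were not called by DESeq2. Leaving out 1 library, Hspa13 ran from -0.75 to -0.44 and Hspa9 from -0.62 to -0.35. Exons of Wdr61 cover 44.1% of the exon bases of Dnaja4 on the opposite strand. With the library totals behind the deposited FPKM as scaling, which put the median of all genes at -0.93, 55 members were lower in IgG than in input and 0 higher, and all 8 chaperonin subunits were lower.

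CPEB1 IP against IgG is the comparison by which the study defined CPEB1-associated transcripts. Of 62 members tested, 29 were higher in CPEB1 IP and 2 were lower, beside 14.7% higher and 18.7% lower among all 12124 genes tested. The median log2 fold change was 0.39 for the members and -0.01 for all genes. The share of genes that were higher moved with abundance in input. Among genes with a mean input FPKM under 5, 1.86% were higher, against 19.9% from 5 to 30, 56.6% from 30 to 100 and 55.8% at 100 and over. Of the members, 2 of 14, 5 of 23, 12 of 14 and 10 of 11 were higher in those ranges, with median log2 fold changes of -0.06, 0.29, 0.52 and 0.63, beside -0.44, 0.19, 0.38 and 0.33 for all genes. The 22 of 25 abundant members that were higher are thus to be read beside shares over 50% in genes of like abundance. These ranges were set after the values were seen.

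Tcp1 again led the chaperonin, with a log2 fold change of 0.80 ± 0.10 over IgG (edgeR adjusted p = 1.2e-05). Cct7 (0.66), Cct5 (0.60), Cct3 (0.55), Cct8 (0.42), Cct4 (0.42) and Cct6a (0.38) were higher as well, 7 of the 8 tested. Among all genes tested 14.7% were higher. At an input FPKM of 30 to 100 and of 100 and over, where the 8 subunits lay, 56.6 and 55.8% were higher. Cct2 was at 203 and 260 CPM in input, 253 and 220 in IgG and 253 and 277 in CPEB1 IP, and its 0.10 ± 0.11 did not pass (edgeR adjusted p = 0.48). The CPEB1 IP and IgG libraries of Cct2 met at 253. No subunit was lower, also at an unadjusted p under 0.05 and with DESeq2, and Cct6a lost its call without IgG 1.

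Among the Hsp genes, 11 of 20 were higher and 1 lower, beside 14.7 and 18.7% of all genes tested. The Hsp genes were not split by abundance in input, with which the share of higher genes moved. The largest differences were those of Hspbp1, a nucleotide exchange factor of Hsp70 (1.01 ± 0.18, edgeR adjusted p = 0.00025), Hspd1 (0.95 ± 0.10), Hspa2 (0.95 ± 0.29), Hspa9 (0.78 ± 0.09) and Hspa1a (0.77 ± 0.11). Hsph1 (0.70), Hspa5 (0.66), Hspa8 (0.63), Hspa4l (0.55), Hspa4 (0.43) and Hspb1 (0.33) were higher too, and Hspa1b (0.59) lay at the threshold without passing it. Hspbap1, a protein that binds Hspb1, was lower (-0.90 ± 0.28). Hspa2 and Hspbap1 lost their calls without CPEB1 IP 2 or IgG 1, and Hspa4l without either CPEB1 IP library or IgG 2.

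Hspd1 and Hspe1, which share a promoter region and are partners in the mitochondrial chamber, differed. Hspd1 was at 491 and 599 CPM in input, 251 and 266 in IgG and 542 and 507 in CPEB1 IP, and the IgG libraries stood clear of the rest. Hspe1 was at 188 and 284 in input, 201 and 224 in IgG and 227 and 226 in CPEB1 IP, so the input libraries spanned all others, and the log2 fold change over IgG was 0.02 ± 0.11 (edgeR adjusted p = 0.90). Hspd1 had 2.61 and 2.11 counts for each count of Hspe1 in input, 2.39 and 2.24 in CPEB1 IP and 1.25 and 1.19 in IgG. This ratio did not overlap between IgG and either other group, a pattern that an exact test of 2 against 2 libraries could not bring under a p of 0.05. Other genes hold 29.6% of the windows of Hspd1 and 11.9% of those of Hspe1.

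**Figure D3:**
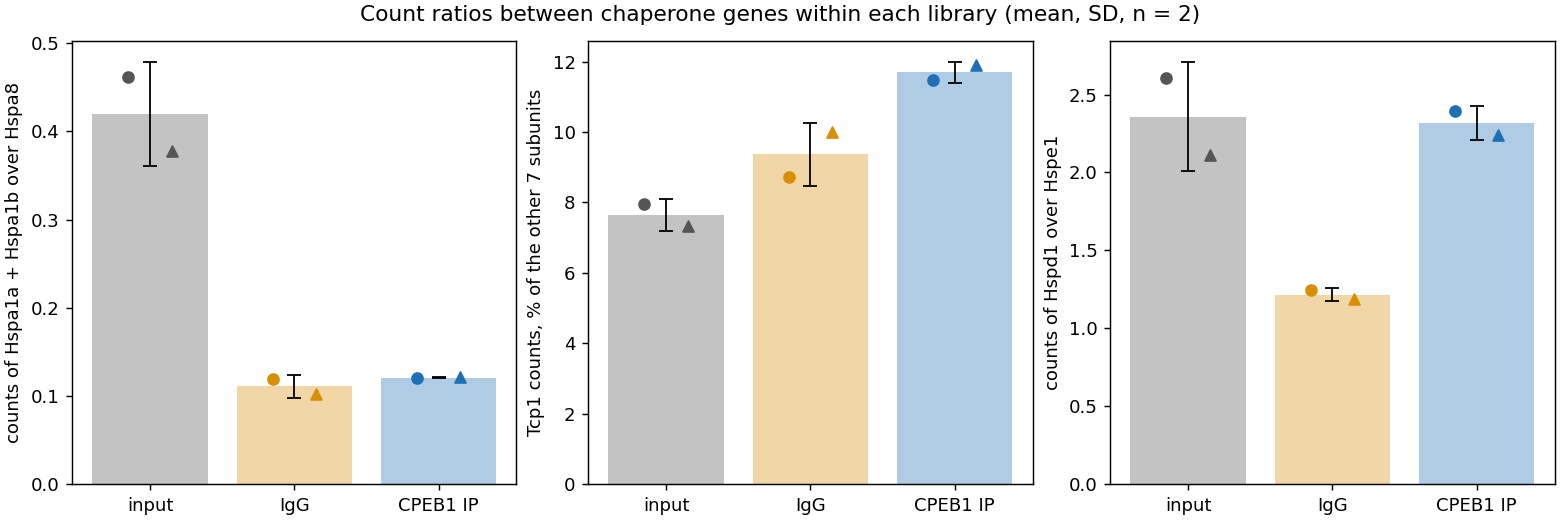
Ratios of counts between chaperone genes within each library, with bars for the mean of 2 libraries, error bars for the SD and symbols for the libraries (circle, replicate 1; triangle, replicate 2). Hspa1a and Hspa1b together against Hspa8 were at 0.420 in input, 0.111 in IgG and 0.121 in CPEB1 IP, Tcp1 was highest relative to the other 7 subunits in CPEB1 IP, and Hspd1 against Hspe1 was lowest in IgG.

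The Dnaj genes gave 11 higher and 1 lower of 34 in CPEB1 IP against IgG, beside 14.7 and 18.7% of all genes tested. Dnajb2 (0.91 ± 0.19), Dnajc3, the ER protein that also inhibits the kinase PKR (0.72 ± 0.09), Dnajc27 (0.70), Dnaja1 (0.61), Dnajb11 (0.49), Dnajc8 (0.49), Dnaja2 (0.48) and Dnajb1 (0.46) were among those higher, as were Dnajb6, Dnajb9 and Dnajc5 at 0.31, 0.31 and 0.29. Leaving out 1 library ended the call of Dnajb6 in all 4 cases, of Dnajc5 and Dnajc27 in 3, and of Dnajb9 and Dnajc8 in 2. Dnajb14, a J protein of the ER membrane whose J domain faces the cytosol, was lower (-0.85 ± 0.31, edgeR adjusted p = 0.039), with 12.3 and 17.3 CPM in input, 27.3 and 21.1 in IgG and 12.9 and 14.9 in CPEB1 IP. Its call was lost with either CPEB1 IP library or IgG 1 left out. Of the 5 mitochondrial J proteins, 0 were higher or lower by edgeR, with 1 higher at an unadjusted p under 0.05 and 1 with DESeq2 (Dnajc11, DESeq2 adjusted p = 0.029). Dnajc2 (-0.10) and Dnajc21 (-0.04) did not pass.

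Heat-inducible and constitutive cytosolic genes gave like counts over IgG, 6 of 10 higher in each list, beside 14.7% of all genes tested. One constitutive gene, Dnajb14, was lower, and the medians were 0.52 and 0.43. The calls of the constitutive list were the less stable, with 3 to 6 higher when a library was left out, against 6 or 7 in the heat-inducible list. Whether the lists differ was not tested.

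By the study's criteria, a CPEB1-associated gene has a ratio of (FPKM + 1) over IgG above 2 in each experiment and a higher count at an adjusted p under 0.05. With edgeR as the count test, 26 members met both, 7 chaperonin, 10 Hsp and 9 Dnaj genes, beside 12.1% of all 12124 genes tested. With pseudocounts of 0.1 and 5 in place of 1, 28 and 18 members met them. Hspd1, for example, had ratios of 3.43 and 3.23. The deposited FPKM, however, was divided by library totals of which the IgG counts on genes were a smaller share. The median log2 ratio over all genes tested was 0.54 and 0.61 in the 2 experiments, and that over the members 1.02 and 1.03. With TMM library sizes in place of those totals, the medians of all genes were -0.01 and -0.02, and 0 members met both criteria, beside 56 genes in all. The ratios of Hspd1 were then 2.06 and 1.81, those of Hspbp1 2.00 and 1.98, and those of Tcp1 1.88 and 1.61. The count of members called higher by edgeR does not use these totals, and it became 54 of 63 when they served as library sizes, with the median of all genes at 0.84.

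**Figure D4:**
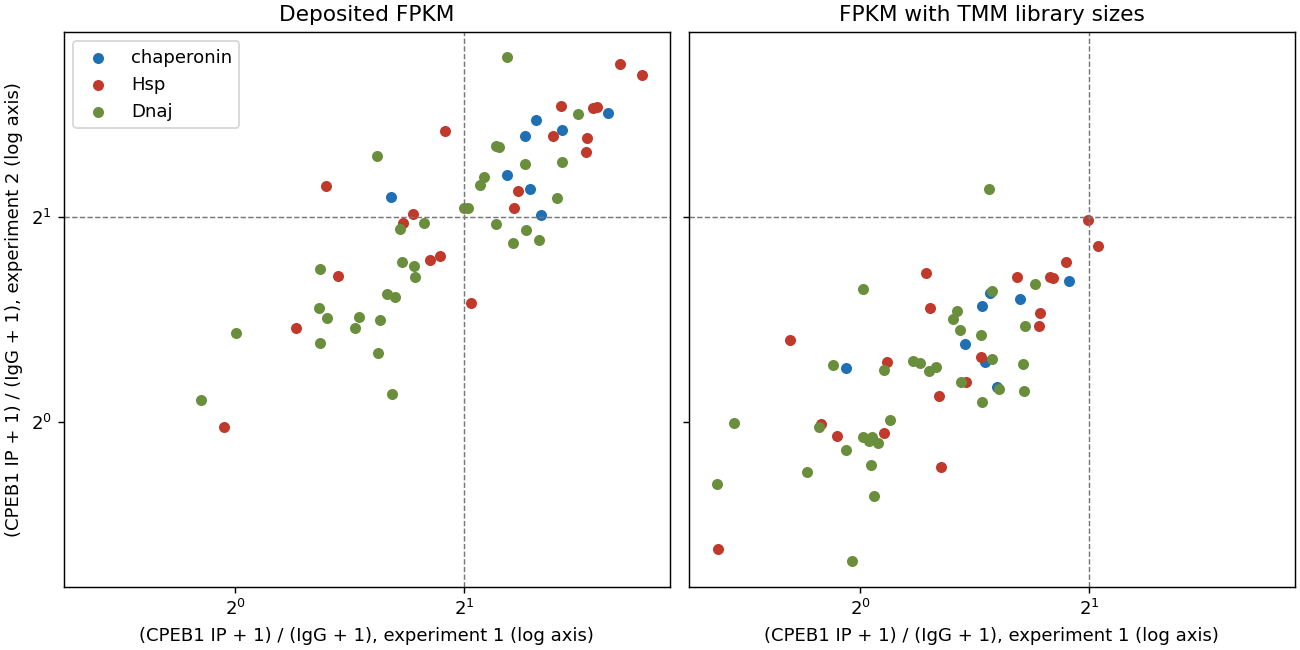
Ratio of (FPKM + 1) in CPEB1 IP over IgG in experiment 1 (x) and experiment 2 (y), on log axes, for the 62 members tested, by family, from the deposited FPKM (left) and from FPKM with TMM library sizes (right); dashed lines mark a ratio of 2. On the left 26 of the genes with both ratios above 2 were also higher by edgeR, and on the right none lay above 2 in both.

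The share of members with a CPE lay near that of all genes. Of the 81 genes, 52 (64.2%, exact Clopper-Pearson 95% interval 52.8 to 74.6%, which covers counting error only) held at least 1 of the 9 CPE motifs that the study lists in an annotated 3′ UTR, beside 68.0% of all genes tested in CPEB1 IP against IgG. Of the 62 members in that test, 43 (69.4%) held one. The canonical motifs TTTTAT and TTTTAAT alone were found in 45. By family, a CPE was found in 4 of 9 chaperonin, 14 of 27 Hsp and 34 of 45 Dnaj genes. The medians of the longest annotated 3′ UTR were 460, 725 and 1409 bases in that order, so the share with a CPE moved with length. The part of length was not tested. Members meeting both criteria held a CPE in 17 of 26 cases (65.4%), and those tested that did not meet them in 26 of 36 (72.2%). Heat-inducible and constitutive cytosolic genes each had 6 of 10. A match describes the letters of the annotated UTR and is not a measured site.

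Chaperone partners that the rule did not take were counted from a list of 42 genes. Over IgG, 21 of 41 were higher in CPEB1 IP and 1 lower, beside 14.7 and 18.7% of all genes tested. The partners were not split by abundance in input, with which the share of higher genes moved. Hsp90aa1 (0.60 ± 0.10) and Hsp90ab1 (0.44 ± 0.10), the cytosolic Hsp90 genes, and Hsp90b1 (0.52 ± 0.09), that of the ER, were higher, and Hsf1 was lower (-0.36 ± 0.11). The direction of Hsf1 turned to 0.45 with the library totals behind the deposited FPKM and to 0.04 without the filter on low counts. Against input, 10 partners were higher in CPEB1 IP and 4 lower, beside 17 and 15.8% of all genes tested. None of the 3 Hsp90 genes passed, with values from -0.01 to 0.22. In IgG against input 4 were higher and 17 lower, beside 21.4 and 19.4% of all genes tested. Those lower included Hsp90aa1 (-0.50), Hsp90ab1 (-0.41) and Hsp90b1 (-0.64).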

How the data were processed

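RIP-seq of fiSCs gave 6 libraries in 3 groups of 2, taken from the sample labels. The authors mapped reads to mm10 with HISAT and counted them on genes with featureCounts, and raw counts were deposited for each library. The authors also deposited FPKM, for which counts were divided by gene length and by a total that exceeds what fell on genes in that library. Every sample column was used. Annotation release, strand setting and handling of reads with several matches are not given in the sources used here.

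The count tests were run with edgeR 4.0.16 under R 4.3.3 (filterByExpr, TMM, quasi-likelihood test, 2 groups at a time, Benjamini-Hochberg adjustment over all genes tested, 0.05). CPM values were scaled by TMM over all 6 libraries. The SE is the size of the log2 fold change divided by the square root of F. Tested on simulated data in which 200 genes differed by 2 on the log2 scale, the fit called 195 of those in CPEB1 IP against IgG (12124 genes), 198 in CPEB1 IP against input (12171) and 184 in IgG against input (12980), with 8, 17 and 12 unchanged genes called. Smaller changes were not simulated. Alternatives were DESeq2 1.42.0, other library sizes, no filter, all 6 libraries in one fit, a replicate block, pseudocounts of 0.1 and 5, other CPE rules and leaving out each library.

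The members and lists were chosen with earlier results of these data known. The rule for naming took all chaperonin subunits, all members of the lists, 3 Hsp90 genes, Hsf1 and Cpeb1. It also took the 5 members outside the lists with the largest difference past the threshold and a mean FPKM over 1 in each comparison. Of the list members, Dnajb12, Dnajc7, Dnaja3, Dnajc15, Hspb2 and Hspb6 were counted with their lists and are not given singly. Added after their values were seen were Pax7, Myod1, Dnajc25, the members in no test and the other genes whose sequence overlaps that of a member. Sequences and 3′ UTRs came from GENCODE M21 (mm10), in which 80 of 81 members matched with the same start and end, and promoters from RefSeq (GRCm38.p6); both were read in Python 3.11.15.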

Additional observations from a re-analysis of the deposited data

How the results depend on the processing

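With DESeq2, 0 members were lower in CPEB1 IP against IgG (2 by edgeR), 9 were higher in CPEB1 IP against input (14) and 1 was higher in IgG against input (4). With the library totals behind the deposited FPKM as scaling, 54 were higher and 0 lower in CPEB1 IP against IgG (29 and 2), 5 were higher in CPEB1 IP against input, and 0 were higher and 55 lower in IgG against input (4 and 23). A fit of all 6 libraries left 1 lower in CPEB1 IP against IgG, and FPKM with TMM library sizes left 0 members meeting both criteria of association (26). Leaving out 1 library gave 23 to 27 higher and 0 to 3 lower in CPEB1 IP against IgG, 4 to 21 and 8 to 17 in CPEB1 IP against input, 2 to 6 and 16 to 26 in IgG against input, and 23 to 26 members meeting both criteria; where this leaves a group with 1 library, that library is assumed to vary like the other group. With the library totals as scaling, the direction turned for some genes, of which those named by the rule that passed the test under either scaling are given here. In CPEB1 IP against IgG these were Dnajc1 (0.61), Dnajc19 (0.78), Dnajc2 (0.71), Dnajc13 (0.68), Dnajc21 (0.77), Dnajb5 (0.78) and Hsf1 (0.45), and in IgG against input Dnajc1 (-0.55), Dnajc5 (-0.86), Dnajc11 (-0.73), Dnaja2 (-0.81), Cct2 (-0.86), Dnajb9 (-0.73), Tcp1 (-0.73), Hsf1 (-0.73) and Cpeb1 (-0.83); that scaling moves the median of all genes by construction. Dnajc25 turned as well, to 0.44 and -0.41. Hsf1 turned to 0.041 over IgG without the filter, and Hspe1 was at 0.30 in CPEB1 IP against input without input 2 and at -0.30 without input 1. The cause of the other changes was not tested. The shares with a CPE stayed within the interval given under the other rules, 55.6% for canonical motifs and 65.8% of genes with an annotated 3′ UTR.

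No shared effect of the replicate number was seen: the deviations of same-numbered libraries from their group means had correlations of -0.0067 (CPEB1 IP and IgG), -0.027 (CPEB1 IP and input) and 0.027 (IgG and input) across 16197 genes. With 2 libraries in a group, this cannot show that the experiments were unpaired. The study took each CPEB1 IP over the IgG of its experiment, and the FPKM ratios above were formed by replicate number. With the replicate number as a block, 28 members were higher and 3 lower in CPEB1 IP against IgG, 11 and 11 in CPEB1 IP against input, and 4 and 23 in IgG against input.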

Other observations

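Some of the 15 members in no test had counts in the precipitates and few or none in input, as values with no test. Dnajc6, a J protein that uncoats clathrin vesicles, was at 0 in both input libraries, at 8.35 and 2.91 CPM in IgG and at 2.08 and 0.826 in CPEB1 IP. Dnajc5g was at 0 in input and CPEB1 IP and at 1.52 and 4.37 CPM in IgG, and Dnajb7 was at 0 and 0.315 in input, 3.04 and 2.19 in IgG and 0.417 and 0.413 in CPEB1 IP. In these 3 genes the IgG libraries were the highest. Members with at least 1 count numbered 78 and 79 in IgG, 75 and 76 in CPEB1 IP and 75 and 74 in input, beside those over all genes in the same order of libraries (32381 and 32328, 25280 and 29465, and 21150 and 20158).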
